A study of Mus musculus with 24 samples.

Results

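The cytoplasmic ribosomal protein genes are 83 of the 22380 protein-coding genes of GENCODE M1, the mouse annotation on the genome build mm9. They were chosen by name: Rpl or Rps followed by a digit, Rpsa, and the stalk genes Rplp0, Rplp1 and Rplp2, without the Rps6k kinases, without names ending in -ps and without genes of a single exon. The rule gives 31 genes of the small subunit, 42 of the large subunit, 3 stalk genes, 6 paralogs whose name carries a suffix, and Rps19bp1, which the name pattern takes in although it encodes a binding partner of Rps19 and not a ribosomal protein. No measured value was used to choose them. They lie on 19 chromosomes and hold 0.190% of all exon bases of protein-coding genes, and 30 of them hold 59 annotated snoRNA genes.

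RNA came from CCE embryonic stem cells (strain 129/SvEv, feeder independent), differentiated for 5 days in 0.266 µM retinoic acid without LIF, and from whole fetal head (FH) of FVB/N embryos at 14.5 dpc. Total RNA was depleted of ribosomal RNA with RiboMinus, in 1 round for CCE1, CCE2 and FH1 and in 2 rounds for FH2, or with Ribo-Zero, and was fragmented either by RNA hydrolysis or, as cDNA, by shearing. The RiboMinus data were 7 cDNA preparations (CCE1 and CCE2 sheared, CCE1 and CCE2 hydrolysed, FH1 sheared, FH1 and FH2 hydrolysed), each sequenced at Vienna-IMP and at Nijmegen, thus 14 libraries. Ribo-Zero was 1 hydrolysed library per tissue, sequenced at Vienna-CeMM from other RNA. Sheared and hydrolysed preparations of 1 number share their depleted RNA, and the study calls the CCE preparations technical replicates, so that p-values measure the spread between preparations of 1 RNA and not between cultures or animals, and tissue, strain and in vitro growth cannot be told apart. FH is a mixture of tissues, and in such bulk samples fewer cells of a type and less RNA per cell cannot be told apart.

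The RiboMinus libraries held 920424 to 2473448 uniquely aligned tags and the Ribo-Zero libraries 28708715 (CCE) and 48426051 (FH). Members held 2260 to 8873 exon tags per RiboMinus library, with a median of 5 to 26 tags per member, so most members are known from few tags. The hydrolysed preparation numbers went against each other between locations: the log2 difference of number 1 minus number 2 over 10306 genes correlated between Vienna-IMP and Nijmegen at r = 0.45 for CCE sheared, but at -0.45 for CCE hydrolysed and -0.41 for FH hydrolysed, so the value without that assumption is given where it changes a call. Marker genes followed the labels: 8 of 8 neural, 4 of 4 erythroid, 5 of 5 muscle and 6 of 6 cartilage and bone markers tested were higher in FH, and 5 of 5 pluripotency and 12 of 14 primitive endoderm markers were lower. The 6 erythroid genes, 4 of them at 0 tags in CCE, summed to 2.44 RPKM in pooled CCE and 1227 in FH libraries, and their part in the differences of ribosomal protein genes was not tested.

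Each ribosome is built from a small subunit, which reads the mRNA, and a large subunit, which joins the amino acids, and the stalk of the large subunit recruits the elongation factors. The mRNAs of these proteins are among the most abundant of growing cells, begin with a tract of pyrimidines at which their translation is controlled as a group, and have short introns that often host snoRNAs. They have also been copied back into the genome many times as processed pseudogenes, intronless copies of the spliced mRNA, so that a short tag from such an mRNA often has several equally good places and is discarded when unique placement is asked for.

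The sequences show how much of the coding part that rule removed. Every 36-nt window of the coding sequence was searched in the genome with up to 2 mismatches on both strands, as the RiboMinus tags were aligned. The first set holds windows with a single place, the second windows with further exact copies elsewhere, and all are printed in lower case:
Rpl8, exon 4 of 6, chr15:76735349-76735384, mm9, plus strand: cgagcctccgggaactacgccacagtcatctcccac
Rplp1, exon 3 of 3, chr9:61761218-61761253, mm9, minus strand: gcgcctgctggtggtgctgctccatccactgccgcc
Rps27, exon 3 of 4, chr3:90016882-90016917, mm9, minus strand: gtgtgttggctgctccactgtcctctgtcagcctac
Rpl3, exon 7 of 10, chr15:79909164-79909199, mm9, minus strand: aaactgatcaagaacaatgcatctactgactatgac
Rps12, exon 6 of 6, chr10:23505020-23505055, mm9, minus strand: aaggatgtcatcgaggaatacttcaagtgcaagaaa

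At the exact start of the Rpl8 window 149 tags lay over all CCE RiboMinus libraries and 58 over those of FH, and that of Rplp1 had 73 and 52. The windows of Rps27, Rpl3 and Rps12 have 9, 24 and 22 exact places in the genome, and no tag started there in any RiboMinus library.

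Over the whole family, 23931 coding windows of 36 nt that lie within an exon (80.1%) had at least 1 further exact copy and carried 0 tags over the 14 RiboMinus libraries. Another 3272 windows (11.0%) had a further place with 1 or 2 mismatches and carried 4807 tags, and the 2660 windows (8.91%) with a single place carried 38033 tags. With the 51-nt reads of Ribo-Zero the share with a single place was 9.11%, and the 18523 windows with exact copies again held 0 tags. Over all exon windows, untranslated and alternative exons included, 70.7% of the members' windows had a single place, against 88.7% in other protein-coding genes.

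For 67 of the 83 members no coding window of 36 nt had a single place, 26 of 31 small subunit and 37 of 42 large subunit genes among them, and at 51 nt there were 69 such members. The other extreme included Rpl3l, a muscle paralog of Rpl3 (76.0% of its coding windows), Rps19bp1 (72.1%), Rpl8 (69.3%) and Rpl39l, a testis paralog of Rpl39 (62.7%). Below them came Rps3 at 25.9%, Rps27l at 17.1%, Rpl22 at 13.8%, Rpl4 at 9.82% and Rps9 at 8.78%. The first further place of the copied windows was an annotated pseudogene in 51.7%, a single-exon coding gene in 10.7% and no annotated gene in 28.8%, while the annotation names only 107 Rpl and Rps pseudogenes ending in -ps.

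**Figure D1:**
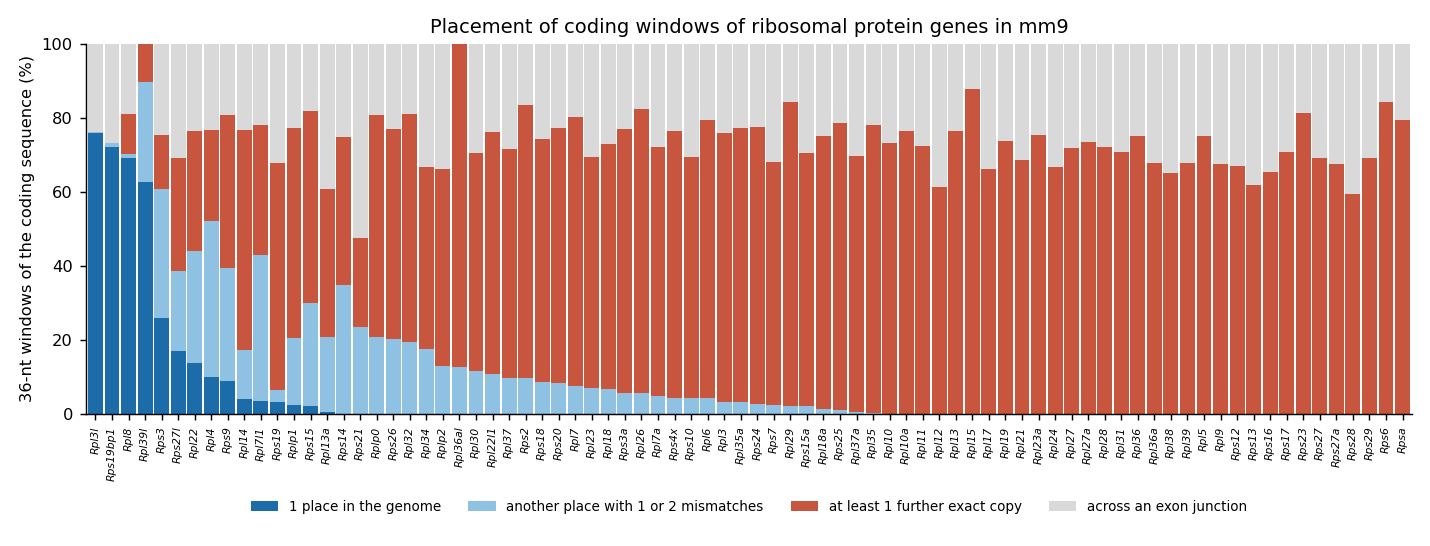
Share of 36-nt windows of the coding sequence (y, percent of each gene's windows) for 80 of the genes (x), ordered by the share with 1 place in the genome. Dark blue marks windows with 1 place, light blue windows with another place at 1 or 2 mismatches, red windows with a further exact copy and grey windows that cross an exon junction; only 4 of those drawn have 1 place for most of their windows.

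Tags were not aligned across splice junctions, which make up a median of 25.1% of a member's coding windows. Most of these spliced windows nonetheless have a place in the genome, since the intronless copies hold the joined exons: of 10045 windows across a junction, 86.4% had more than 1 place, 6.34% had none, and 546 (5.44%, from 16 members) had exactly 1 place outside the gene. Examples follow with the place found, and capitals mark the bases of the second exon:
Rps9, exons 4 and 5, chr7:148363957-148363992, mm9, minus strand: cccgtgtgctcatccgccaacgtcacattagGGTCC
Rpl4, exons 3 and 4, chr1:144990872-144990907, mm9, minus strand: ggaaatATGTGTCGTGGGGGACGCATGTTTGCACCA
Rplp2, exons 2 and 3, chr12:76732175-76732210, mm9, minus strand: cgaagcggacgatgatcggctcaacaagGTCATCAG
Rpl14, exons 3 and 4, chr7:52580507-52580542, mm9, plus strand: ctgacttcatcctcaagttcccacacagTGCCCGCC

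The Rps9 and Rpl4 windows fell where no gene is annotated, the Rplp2 window in Rplp2-ps1 and the Rpl14 window in Rpl14-ps1, inside an intron-bearing gene, Trpm4. The Rpl4 place differs from the spliced mRNA by C34T, with positions counted from 1 at the 5′ end of the window and the mRNA's base first, and the other 3 places are exact. Tags at these places numbered 86 in CCE and 72 in FH for Rps9, 74 and 26 for Rpl4, 131 and 106 for Rplp2, and 91 and 98 for Rpl14.

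In all, the 546 places outside the genes carried 13875 RiboMinus tags, 25412 per 1000 places, and 530 of them held at least 1 tag. The 2660 single-place coding windows inside the genes carried 14298 tags per 1000 windows. These places match the spliced mRNA with up to 2 mismatches, the sequence of the tags themselves is not in the files used here, and whether they come from the member's mRNA or from transcription of the copy cannot be told apart.

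For 6 members both levels could be compared, in tags per 1000 windows and 1000000 unique tags. In CCE the level at the places elsewhere over that inside the gene had a median ratio of 1.38, and in FH of 1.51, and 5 of the 6 members were within 2-fold in each tissue. Rpl4, a large subunit protein, had 1054 elsewhere and 1199 inside in CCE, and 375 and 478 in FH. Rps9 had 2385 and 2136 in CCE and 2144 and 1660.4 in FH. By either measure the FH value was the lower one in each gene. In Ribo-Zero the median ratio was 0.988 in CCE and 0.950 in FH, with 4 of 6 members within 2-fold, and Rps9 was outside, at 888 elsewhere against 391 inside in CCE and 447 against 191 in FH.

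Rps3 had 2040.3 elsewhere against 1099 inside in CCE RiboMinus, but 1244 against 1674 in CCE Ribo-Zero. Rpl14 lay outside 2-fold in both kits, with 682 elsewhere and 110.3 inside in CCE RiboMinus, a ratio of 6.18, and a ratio of 9.84 in CCE Ribo-Zero. Members without any single-place coding window had no level inside the gene in RiboMinus, although coding windows with near copies held some of their tags. At the places elsewhere, the stalk gene Rplp2 had 1944, Rps21 1010.4 and Rpl23 684 in CCE. There, tags of the member's mRNA and of a transcribed copy cannot be told apart. By the level at the places elsewhere, all 9 members with at least 10 such places exceeded 100 in both tissues in RiboMinus, and 10 of 11 in Ribo-Zero.

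**Figure D2:**
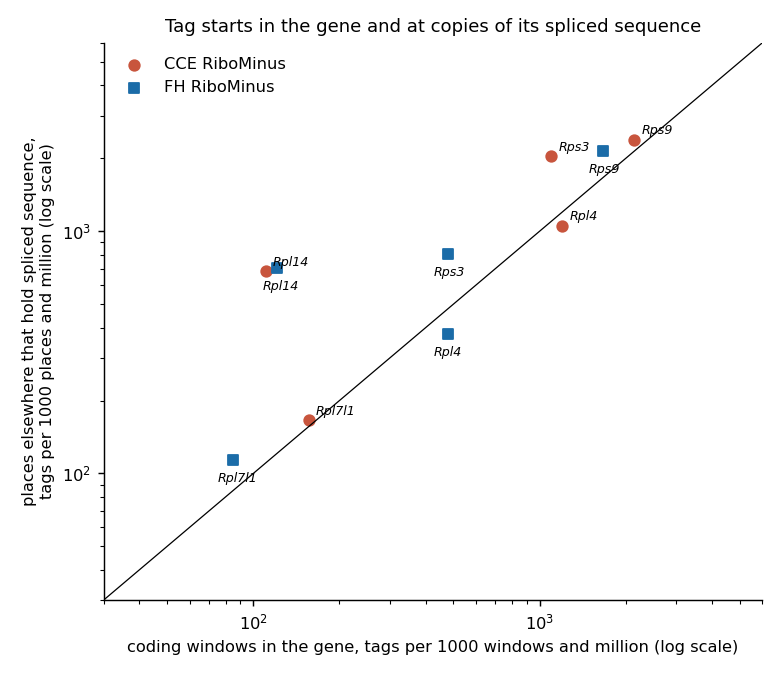
Level inside the gene (x) against level at single places elsewhere that hold spliced sequence (y), both as tags per 1000 windows and 1000000 unique tags on log scales, for 5 of the 6 members with enough of both. Circles are pooled CCE and squares pooled FH RiboMinus libraries, and the line marks equal levels; every gene drawn but Rpl14 lies within 2-fold of it.

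Where a member has no single-place coding window, its tags come from elsewhere in the gene. In those 67 members 66.5% of the RiboMinus tags started in exons outside the main coding transcript, such as retained introns and alternative ends, 22.8% in single-place untranslated exons and 6.81% in coding windows with near copies. Over all 83 members 52.1% of tags started in single-place coding windows. The expression values that follow count tag midpoints over merged exons per kb and 1000000 unique tags (RPKM), and for most members they therefore describe the less copied part of the gene and not the coding mRNA.

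On this scale the family did not look abundant. The median member stood at 6.55 RPKM in pooled CCE RiboMinus libraries and 4.21 in FH. All protein-coding genes with more than 3 tags had medians of 4.63 and 4.02, and 57 of the 83 members lay above in CCE and 44 in FH. In Ribo-Zero the members stood at 7.11 and 4.01, against 4.04 and 2.98. The members' medians include those with 3 tags or fewer. In CCE RiboMinus 4 members exceeded 100 RPKM and in FH 2, and the share of all genes is not given here. In 42 of 82 members with an exon tag in CCE and 46 of 83 in FH the main coding transcript had a lower tag density than the gene's own introns, against 2.73% and 2.89% of other genes.

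The highest RPKM in the pooled CCE RiboMinus libraries was that of Rpl8. It is a large subunit protein at the peptidyl transferase centre, and it had 1019, 715, 629 and 617 RPKM in CCE1 sheared, CCE2 sheared, CCE1 hydrolysed and CCE2 hydrolysed, and 440.4, 240.2 and 283 in FH1 sheared, FH1 hydrolysed and FH2 hydrolysed. All FH preparations lay below all CCE preparations.

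Also among the highest were Rpl4 with 149.8 RPKM in pooled CCE libraries, Rplp1 with 113 and Rps3 with 94.2. The lowest members were Rpl22l1, a paralog of Rpl22 with 0 tags in CCE and 1 in FH, Rpl3l with 3 and 1, Rps3a with 8 and 3, Rps27 with 4 and 4, and Rps15a at 1.11 RPKM. For Rpl22l1 a count of 0 allows up to 3 tags. The low values of Rpl22l1, Rps27, Rps3a and Rps15a stand beside coding sequences that have no single-place window, whereas 76.0% of the coding windows of Rpl3l have 1 place.

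On single-place coding windows alone, the 12 members with at least 20 such windows had a median level of 602 tags per 1000 windows and 1000000 unique tags in CCE and 290.1 in FH, and 9 of them exceeded 100 in CCE. FH lay below CCE in 10 of the 12 in RiboMinus and in 12 of 12 in Ribo-Zero. Over merged exons FH lay below CCE in 64.2% of genes with a mean over 3 RPKM in a tissue in RiboMinus. In Ribo-Zero it did so in 65.8% of all genes compared. The 12 include Rps19bp1 and also Rpl3l, which had 2 RiboMinus tags in CCE and 0 in FH. Rps3 is a small subunit protein at the mRNA entry. On its single-place coding windows it had 1397, 711, 1097 and 1150.3 in the CCE preparations, ordered as above, and 368, 492 and 513 in FH, without overlap.

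Per library, members took 0.428% to 0.734% of the tags in exons of protein-coding genes. The 4 CCE sheared libraries ranged from 0.465% to 0.653%, the 4 CCE hydrolysed libraries from 0.469% to 0.734%, the 2 FH sheared libraries from 0.428% to 0.449% and the 4 FH hydrolysed libraries from 0.431% to 0.518%. Sheared libraries of the tissues did not overlap, while the highest FH hydrolysed libraries lay above the lowest CCE ones. The Ribo-Zero library of CCE had 0.847% (95% Wilson interval 0.843 to 0.851) and that of FH 0.540% (0.537 to 0.544), where intervals cover counting error only. With repeated positions counted once the order of the kits turned, with 0.280% and 0.225% in Ribo-Zero of CCE and FH against 0.295% to 0.457% in the RiboMinus libraries.

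**Figure D3:**
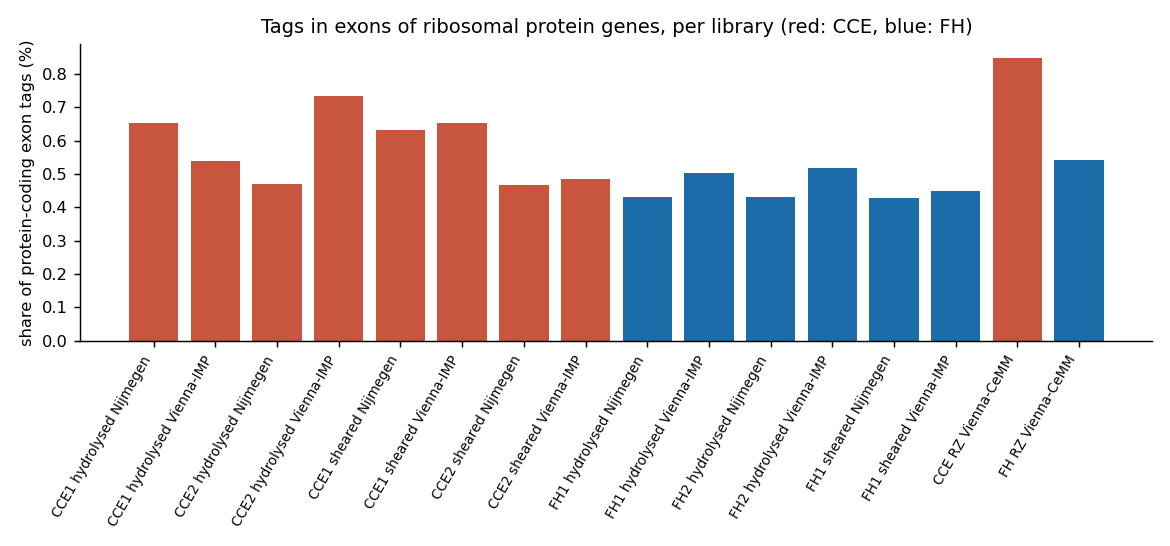
Share of protein-coding exon tags that lie in the 83 genes (y, percent) for each of the 16 libraries (x), with CCE in red and FH in blue. With all tags counted, repeated positions included, the CCE Ribo-Zero library is highest at 0.847% and an FH sheared library lowest at 0.428%.

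FH was compared with CCE to ask which transcripts differ between the tissues, over the 7 preparations with the fragmentation method as a covariate. Of 10306 genes with a mean over 3 RPKM in a tissue, 25.5% were higher and 49.0% lower in FH (limma, adjusted p under 0.05). Of the 83 members 70 were tested, and Rpl10, Rpl17, Rpl22l1, Rpl23a, Rpl3, Rpl35, Rpl3l, Rps13, Rps15a, Rps25, Rps27, Rps27a and Rps3a were too low. In FH 44 members were lower and 2 higher, and their median log2 difference was -0.61 against -0.36 over all genes tested.

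Scaled instead to tags in protein-coding exons, the median of all genes became 0.02 (4298 genes higher and 3737 lower), while that of the members was -0.34, with 3 higher and 30 lower. Relative to all genes the members thus stood at -0.25 on the first scale and -0.36 on the second. Every FH preparation lay below every CCE preparation in 25 of the 70 members, against 35.9% of all genes tested, and above in 2, against 20.3%.

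Among small subunit genes 16 of 25 tested were lower and 1 higher, with a median of -0.72. Rps2, a protein near the decoding centre, had 13.4, 14.3, 18.3 and 14.6 RPKM in CCE and 2.89, 4.41 and 3.92 in FH, 15.2 ± 2.19 (SD, n = 4) against 3.74 ± 0.776 (n = 3). Its log2(RPKM + 1) fell by 1.82 ± 0.13 (SE, limma adjusted p = 1.31e-06). Rps14, a protein of the platform, fell by 1.5 ± 0.17 (limma adjusted p = 3.25e-05), from 12.9 ± 2.42 to 3.83 ± 0.83 RPKM.

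Rps26, which contacts the mRNA ahead of the start codon, had 20.2, 16.5, 49.3 and 49.2 RPKM in CCE against 4.74, 24.7 and 17.1 in FH. Hydrolysed FH preparations thus overlapped with sheared CCE preparations, and the fall of 1.43 ± 0.17 (limma adjusted p = 3.96e-05) was estimated with the method as a covariate. Without the fragmentation covariate its adjusted p was 0.11. At the small end, Rps16 fell by 0.44 ± 0.17 (limma adjusted p = 0.0399), and its preparations overlapped between the tissues. The call of Rps16 was lost under 12 of 21 alternatives.

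Rps18 went the other way, from 7.12, 6.83, 6.94 and 6.92 RPKM in CCE to 10.6, 8.32 and 9.01 in FH, a rise of 0.39 ± 0.12 (limma adjusted p = 0.0147). On the exons of its main coding transcript alone the difference was -0.38 (adjusted p = 0.262), so the rise was seen only with its other exons counted, and leaving out FH1 sheared gave an adjusted p of 0.129. The call of Rps18 was lost under 7 of 21 alternatives, with 1 more in the other direction. In Ribo-Zero Rps18 had 5.13 RPKM in CCE and 4.4 in FH.

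Large subunit genes were lower in 22 of 37 tested and higher in none, with a median of -0.56. Rpl4, a protein that lines the exit tunnel, had 161, 102, 154 and 173 RPKM in CCE and 45.8, 64.4 and 66.5 in FH, and fell by 1.37 ± 0.16 (limma adjusted p = 4.22e-05). Rpl8 fell by 1.13 ± 0.17 (limma adjusted p = 0.00018), although without the filter on low genes its adjusted p was 0.123. Among the smallest called changes were those of Rpl10a, -0.36 ± 0.11 (limma adjusted p = 0.0159), and Rpl6, -0.44 ± 0.16 (limma adjusted p = 0.0268). These calls were lost under 8 of 21 alternatives for Rpl10a and 11 of 20 for Rpl6.

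The 3 stalk genes went apart. Rplp0, the base of the stalk, had 12.7, 17.2, 12.4 and 11.8 RPKM in CCE and 18.2, 20.9 and 18.0 in FH, a rise of 0.50 ± 0.14 (limma adjusted p = 0.0109) in which all FH preparations lay above all CCE preparations. The call was lost under 5 of 21 alternatives, such as without FH1 hydrolysed (adjusted p = 0.0512) and with the hydrolysed numbers crossed at Nijmegen (0.118), and in Ribo-Zero Rplp0 had 7.94 RPKM in CCE and 5.27 in FH. Rplp1 fell by 0.45 ± 0.18 (limma adjusted p = 0.0402), a call lost under 11 of 21 alternatives, and Rplp2 did not pass at -0.45 ± 0.32 (limma adjusted p = 0.229).

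All 4 paralogs tested were lower in FH. Rps27l, a paralog of Rps27 known as a p53 target, had 44.3, 26.7, 76.4 and 68.8 RPKM in CCE and 5.84, 11.9 and 10.5 in FH, 54.1 ± 22.8 (SD, n = 4) against 9.40 ± 3.16 (n = 3). It fell by 2.51 ± 0.17 (limma adjusted p = 9.74e-07), the largest change of any member tested, and in Ribo-Zero it was at 42.8 in CCE and 7.14 in FH. On its 37 single-place coding windows the level was 259.8 ± 89.2 in CCE and 19.4 ± 22.3 in FH, with no overlap.

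Rpl7l1, a nucleolar relative of Rpl7, fell by 0.96 ± 0.21 (limma adjusted p = 0.00257), Rpl36al by 1.01 ± 0.17 (0.000417) and Rpl39l by 1.06 ± 0.25 (0.00353). On the 74 single-place coding windows of Rpl39l the level was 5.95 ± 4.97 in CCE (n = 4) and 7.98 ± 7.38 in FH (n = 3), which overlapped, on 0 to 4 tags a preparation. Their parents Rpl7 and Rpl39 fell by 0.56 and 0.65, and Rpl36a did not pass at -0.11 ± 0.17 (limma adjusted p = 0.568). The pairs were read from different windows, so the difference between a paralog and its parent was not tested. Rpl7l1 stood at 19.7 RPKM in CCE against 4.19 for Rpl7, Rps27l at 56.8 against 0.888 for Rps27, and Rpl36al at 7.19 against 6.34 for Rpl36a. Rpl22, by contrast, had 40.5 against 0 for Rpl22l1, and Rpl3 2.31 against 0.144 for Rpl3l. Of these genes Rpl7, Rps27, Rpl36a, Rpl36al, Rpl22l1 and Rpl3 have no single-place coding window of 36 nt.

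Rpsa, the laminin receptor protein of the small subunit, fell by 0.87 ± 0.23 (limma adjusted p = 0.00713), and Rps4x, encoded on the X chromosome, did not pass at -0.26 ± 0.22 (0.317). Rps19bp1, which is no ribosomal protein but can be read along 72.1% of its coding sequence, went from 28.1 ± 2.65 (SD, n = 4) to 14.9 ± 3.13 RPKM (n = 3), a fall of 0.86 ± 0.14 (limma adjusted p = 0.000428).

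**Figure D4:**
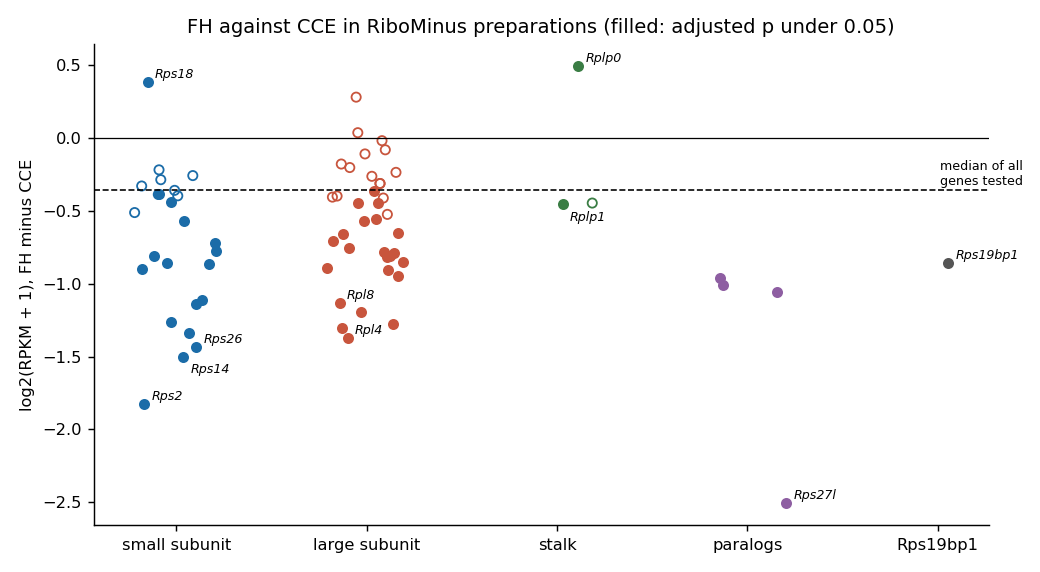
Difference of log2(RPKM + 1), FH minus CCE (y), for the 70 members tested, by role (x), over 4 CCE and 3 FH RiboMinus preparations. Filled points passed limma at an adjusted p under 0.05, open points did not, and the dashed line is the median of all genes tested; Rplp0 and Rps18 are the called points above 0 and Rps27l is the lowest.

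The Ribo-Zero pair, which has no replicates and gives no test, was lower in FH by more than 2-fold in 37 of 83 members and higher by that much in none. The share of all genes was 28.0% and 17.7%. The median log2 difference was -0.94 against -0.47 over all genes, and 80 members lay below 0, as did 65.8% of all genes, with Rpl37, Rps13 and Rps15a above. At the single places elsewhere that hold spliced sequence, the median FH minus CCE difference was -0.55 over 9 members in RiboMinus, 6 of them below 0, and -1.21 over 11 members in Ribo-Zero, all below 0.

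Other genes of the translation machinery were read from lists and set beside the same median of -0.36 and the same shares of all genes tested, 49.0% lower and 25.5% higher. Of 16 other mRNAs with a terminal pyrimidine tract that were tested, 12 were lower and 1 higher in FH, with a median of -0.55. Eef2, the translocating elongation factor, fell by 0.55 and Gnb2l1, the Rack1 scaffold of the small subunit, by 0.54, while Eif3f, a subunit of initiation factor 3, rose by 0.93 (limma adjusted p = 8.25e-05). All 17 ribosome biogenesis genes tested were lower, with a median of -1.0, such as Nop56 and Fbl, core proteins of snoRNA particles that modify rRNA, at -1.47 and -1.32, and Polr1a, the large subunit of RNA polymerase I, at -1.0.

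Mitochondrial ribosomal protein genes were lower in 40 of 64 tested and higher in none, against 49.0% and 25.5% of all genes tested, with a median of -0.56. Of 8 regulators 4 were lower and 1 higher, a share lower that is near that of all genes: Eif4ebp1, an inhibitor of cap-dependent translation, fell by 3.25 (limma adjusted p = 5.47e-08), Larp1, which binds the pyrimidine tract, by 0.88, and Mycn by 0.96. Mtor (0.15, limma adjusted p = 0.365) and Myc (-0.15, limma adjusted p = 0.715) did not pass.

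The pyrimidine tract itself can be looked for at the annotated starts. RefSeq start sites (GRCm38.p6) matched 62 of the 83 members. The 30 bases around the start are shown for 2 members with a tract and, as a contrast, for Rps19bp1 and Rpl3l. Capitals mark the longest run of C and T at the start or a few bases from it:
Rps27, chr3:90213634-90213663, GRCm38.p6, minus strand: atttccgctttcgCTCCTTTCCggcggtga
Rplp2, chr7:141447636-141447665, GRCm38.p6, plus strand: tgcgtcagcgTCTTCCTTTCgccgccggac
Rps19bp1, chr15:80264292-80264321, GRCm38.p6, minus strand: cagggcggaagtagCTCgccgcgtgtgggc
Rpl3l, chr17:24727811-24727840, GRCm38.p6, plus strand: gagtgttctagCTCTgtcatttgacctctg

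A run of at least 8 bases of C or T at the start or a few bases from it, on the gene's strand, was found in 21 of 62 members (33.9%). The share was 9.57% of 26963 other genes. Some of these runs lay wholly before the annotated start, such as 14 bases from position -18 in Rpl4 and 9 from -12 in Rps27l. The start base was C in 32.3% of members and 16.1% of other genes. These letters are a description of the annotation, and a gene without the run may start elsewhere than annotated.

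Fragmentation was compared on the same preparations with the tissue as a covariate, to ask how hydrolysis of the RNA and shearing of the cDNA read the same transcripts. Of all genes tested 25.7% were higher and 20.3% lower when hydrolysed, and of the 70 members 24 were higher and 7 lower, with a median of 0.26 against 0.04. Without FH1 sheared 12 members were higher and 2 lower, and without CCE2 hydrolysed 15 were higher. The shares of all genes in these fits are not given here, so the counts do not show a shift relative to other genes. Large subunit genes were higher in 11 and lower in 3 of 37, small subunit genes in 9 and 4 of 25, and paralogs higher in 3 of 4.

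Among the largest changes, Rpl39l rose by 1.81 ± 0.25 (0.000854), Rpl19 by 1.63 ± 0.20 (0.000552), Rps26 by 1.59 ± 0.17 (0.000386) and Rps4x by 1.31 ± 0.22 (0.00204), with limma adjusted p-values in parentheses. The hydrolysed and sheared preparations did not overlap for Rpl39l and Rps4x and did for Rpl19 and Rps26.

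Among the smallest rises called were those of Rps19, Rpl21, Rplp1 and Rpl36a, at 0.46 to 0.53. The call was lost under 16 of 21 alternatives for Rplp1, 12 of 20 for Rpl36a, 9 of 21 for Rps19 and 4 of 21 for Rpl21. Rplp1 turned to -0.37 and Rps19 to -0.05 when tags at a repeated position were counted once, and Rpl21 to -0.21 on its main coding transcript. The 7 members lower when hydrolysed were Rpl36 (-1.14), Rps6 (-1.02), Rps15 (-0.83), Rps23 (-0.81), Rps16 (-0.65), Rpl8 (-0.57, a call lost under 10 of 21 alternatives) and Rpl10a (-0.54). Whether the effect of fragmentation differs between tissues was tested as an interaction: 8 of 10306 genes (0.0776%) were called and no member, 3 of the 70 members had an unadjusted p under 0.05, against 842 of all genes tested, and the smallest adjusted p was 0.528 for Rps12.

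Along the main coding transcripts of all members, the first of 3 equal parts held 0.933 to 1.09 times the mean density in CCE sheared libraries and the last part 0.642 to 0.837 times. In CCE hydrolysed libraries the last part held 0.729 to 0.939 times the mean, in FH sheared libraries 0.647 to 0.876 and in FH hydrolysed libraries 0.838 to 0.970, and the ranges of the methods overlapped. Within each of the 6 pairs of libraries of the same number and location, the hydrolysed library had the higher value. In other genes the last part held 0.573 to 0.630 in CCE sheared and 0.710 to 0.759 in CCE hydrolysed libraries. Ribo-Zero members had 0.865 in CCE and 0.904 in FH in the last part.

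Ribo-Zero was set beside the pooled hydrolysed RiboMinus libraries of the same tissue to ask how the depletion kits read the same genes. RNA, kit, read length and location differ together between the libraries and cannot be told apart. The median ratio over members was 0.769 in CCE (80 compared) and 0.759 in FH (79 compared), against 0.850 and 0.730 over all genes. More than 2-fold higher were 12 members in CCE, against 15.3% of all genes, and 10 in FH, against 10.9%. More than 2-fold lower were 13 in CCE, against 22.9%, and 23 in FH, against 30.7%.

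Members that hold a snoRNA gene had a median ratio of 1.15 in CCE and 1.01 in FH, and the others 0.672 and 0.644. They made up 10 of the 12 and 8 of the 10 members over 2-fold. Rpl10, a protein of the large subunit whose joining completes it, had 2.85 RPKM in RiboMinus and 32.7 in Ribo-Zero in CCE, a ratio of 11.5 (95% interval 8.49 to 15.9), and 13.1 (9.26 to 19.2) in FH. Of its 1926 CCE Ribo-Zero tags 63 lay on the main coding transcript.

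Rps2 had ratios of 10.6 (9.29 to 12.2) in CCE and 8.84 (6.87 to 11.6) in FH, and Rpl30 7.02 (5.36 to 9.37) in FH. On the main coding transcript the ratio was 0.747 for Rps2 in CCE, and for Rpl30 2.16 (1.06 to 5.13) in FH. The tags that made up the high ratios thus lay mostly outside the main coding transcript. On main coding transcripts the median over members was 0.721 in CCE and 0.648 in FH, with 4 and 6 members more than 2-fold higher, against 15.4% and 11.2% of all genes, and 20 and 28 more than 2-fold lower, against 23.8% and 32.4%, of 78 and 74 compared.

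The lowest ratios were those of Rps16, 0.0792 (0.0431 to 0.139) in CCE and 0.0425 (0.0197 to 0.0837) in FH, Rps26, 0.130 and 0.119, and Rpl38, 0.200 and 0.113. On the main coding transcript the ratio in CCE was 0.0804 for Rps16 and 0.145 for Rpl38, while the main transcript of Rps26 covers the same 447 bases as its merged exons. Rps16 had 55 tags in the hydrolysed CCE RiboMinus libraries and 17 in Ribo-Zero, although the latter held many more tags. Rpl8, read along most of its coding sequence, had 2.13 in CCE and 1.63 in FH.

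**Figure D5:**
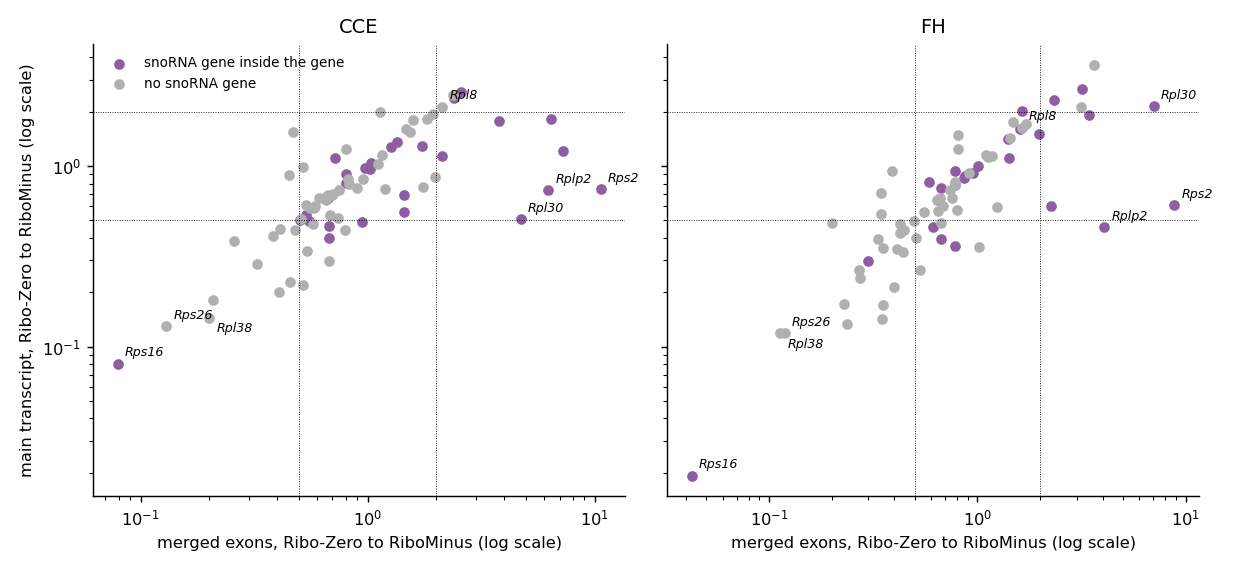
Ratio of Ribo-Zero to hydrolysed RiboMinus RPKM over merged exons (x) and over the main coding transcript (y), both on log scales, for the members with a value on both in CCE (left) and FH (right); purple genes hold a snoRNA gene and dotted lines mark 2-fold. Rps2 and Rplp2 lie far to the right but below 1 on the main transcript, and Rps16 is lowest on both.

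Intron tags, with annotated snoRNA genes left out, had 0.109 to 0.206 times the density of exon tags in the members over the RiboMinus libraries, against 0.0172 to 0.0776 in other genes. Exon windows with a further exact copy held no unique tags, so this is a ratio of readable tags and not of unspliced to spliced RNA. In 26 of 81 members the ratio exceeded 1, against 2.27% of other genes, led by Rpl22l1 (16.8, on 1 exon tag), Rpl3 (7.32) and Rps27 (5.76), and the smallest was that of Rpl8 (0.00675).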

How the data were processed

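RNA-seq tags of 16 libraries, 14 RiboMinus and 2 Ribo-Zero, were analysed, and 8 further samples were not analysed here. Per the submitters' processing notes and the methods of the study, the authors aligned tags of 36 nt (RiboMinus) or 51 nt (Ribo-Zero) with Bowtie to mm9 with 2 or 3 mismatches, after removal of ribosomal tags and, for RiboMinus, mitochondrial tags, kept tags with a single place and did not map splice junctions. Tags of Nijmegen are listed 1 base shorter than those of Vienna-IMP. The Bowtie version is not given in the sources used here. The files deposited by the authors list the start and end of each tag, and their score column, a constant in the deposited files, was not used. The labels give the fragmentation method, while the protocols of all RiboMinus samples describe hydrolysis.

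Tag midpoints were counted here, without strand, in merged exons and introns of GENCODE M1, introns without annotated snoRNA genes. RPKM used all unique tags of a library, which in Ribo-Zero include 2363248 (CCE) and 2200005 (FH) mitochondrial tags, and values of both locations were summed per cDNA preparation. Tests were two-sided with limma 3.58.1 in R 4.3.3 (trend, Benjamini-Hochberg over all genes tested) on log2(RPKM + 1), for genes with a mean over 3 RPKM in at least 1 tissue, FH against CCE with fragmentation as covariate and the reverse. Fold changes on this scale understate those of low genes. The fit, tested on simulated data for FH against CCE, recovered 195 of 200 genes changed 4-fold among 9497, with 21 unchanged genes called. The simulated preparations were drawn independently at a dispersion of 0.02, with no fragmentation effect. Preparations that share RNA, as here, were not simulated, so the recovery does not show that the p-values of these data hold. Ribo-Zero ratios and shares have 95% intervals for counting error only and no test, a change past 2-fold being the call, and a count of 0 allows up to 3 tags. Main coding transcripts were those with a consensus coding sequence and manual annotation, then the longest coding sequence, then the fewest exon bases. Windows were searched exhaustively in mm9 with 2 (36 nt) or 3 (51 nt) mismatches. Tags at a position already seen in the same library made up 17.7% to 29.4% of RiboMinus and 37.4% and 48.6% of Ribo-Zero tags.

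Members, lists and tests were chosen with earlier results of these data known. Named members were the 5 largest and 5 smallest called changes in each comparison, the 5 highest and 5 lowest CCE levels, the 3 highest and 3 lowest shares of single-place windows and Ribo-Zero ratios, the 3 highest intron ratios, the paralog pairs, the stalk genes, Rpsa and Rps19bp1, and other names were chosen after their values were seen. Preparation numbers 1 and 2 mark the same depleted RNA split over fragmentation methods, but the difference of number 1 minus number 2 correlated between methods at r = 0.43 at Nijmegen and -0.53 at Vienna-IMP. Alternatives were pseudocount, filter, scaling, location, repeated positions, overlapping genes, left-out preparations, covariates, transcript and pairing. No protein sequences were used. Values of some members are not reported here.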

Additional observations from a re-analysis of the deposited data

Results flagged for a closer look

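Among 55 sets of 4 values (members' RPKM in the CCE preparations, and shares, densities and positions of tags in the libraries of a group), 1 value lay far from the other 3 in 2 sets, and chance alone marks about 1 in 20 such sets. Rplp0 stood highest in the CCE2 sheared preparation at 17.2 RPKM, against 11.8 to 12.7 in the other CCE preparations. Rplp1 stood lowest in the same preparation at 74.7 RPKM, against 119 to 127. Without CCE2 sheared, the difference of Rplp0 between the tissues was 0.59 (limma adjusted p = 0.0015).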

How the results depend on the processing

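Under each alternative run, more members were lower in FH (44 as reported) than higher (2). Except for the exon-tag scale, counts over all genes are not given here, so these members' counts do not show a shift relative to other genes. For FH against CCE the members lower numbered 28 with no filter, 28 when scaled by the median ratio (median -0.35) and 23 with no fragmentation covariate. The median was -0.75 at a pseudocount of 0.1 and -0.34 scaled by exon tags. Members higher in FH numbered 0 with libraries of Vienna-IMP only, with libraries of Nijmegen only (median -0.77) and with no covariate, and 1 with repeated positions counted once and with hydrolysed preparations only. Of alternatives chosen after seeing the data, the main coding transcript gave 1 higher (median -0.85, Rps18 at -0.38), leaving out the hydrolysed FH1 lane of Vienna-IMP 1 (median -0.75) and hydrolysed numbers crossed at Nijmegen 1. Leaving out each preparation gave 1 to 2 higher, 33 to 54 lower and medians of -0.69 to -0.55.

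For hydrolysed against sheared, no filter gave 13 higher and 1 lower, Vienna-IMP alone 12 and 1, Nijmegen alone 15 higher, and CCE alone 11 and 2. Counts over all genes are not given for these alternatives either. Scaling by the median ratio gave 11 lower (median 0.14), and exon tags a median of 0.41. Repeated positions counted once gave a median of 0.079, Rplp1 at -0.37 and Rps19 at -0.046, and the main coding transcript put Rpl21 at -0.21. Leaving out each preparation gave 12 to 30 higher, 2 to 10 lower and medians of 0.22 to 0.35. With the replicate block, libraries of the same RNA and location as pairs, the median was 0.36, with 23 higher and 6 lower.

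The FH ratio of Ribo-Zero to RiboMinus was 0.616 with repeated positions counted once and 0.648 on main transcripts. The members' share of all unique tags was 0.389% and 0.403% in CCE sheared and hydrolysed, 0.245% and 0.251% in FH, and 0.514% and 0.229% in Ribo-Zero of CCE and FH. With repeated positions counted once the share of exon tags was 0.378%, 0.382%, 0.337%, 0.316%, 0.280% and 0.225% in that order. With snoRNA genes kept, the intron to exon density was 0.130, 0.174 and 0.132 in CCE sheared, CCE hydrolysed and FH sheared, and 0.505 and 0.469 in Ribo-Zero of CCE and FH. Counting only exact copies, 77.1% (36 nt) and 81.9% (51 nt) of exon windows were reachable. The cause of these shifts was not tested. Depth limits single members: the median member had 5 to 26 tags in a RiboMinus library.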
